A study of Rattus norvegicus with 8 samples.

Results

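The cytosolic ribosomal protein genes described here are the 45 genes that stand alone on at least 1 probe set under a symbol beginning with Rpl or Rps and a number, or as Rpsa or Rplp0. Kinases of the Rps6k family and symbols ending in -ps or in l and a number were left out. Of the 14217 genes that stand alone on a probe set, these 45 hold 51 of the 31042 probe sets, and each gene was read from its brightest probe set. The large subunit has 30 of them (Rpl and Rplp symbols) and the small subunit 15 (Rps symbols and Rpsa). A further 36 probe sets carry several symbols with a ribosomal protein name among them and were not used, so that Rps19, Rps18, Rpl10, Rpl38, Rplp1 and Rplp2 are not analysed here.

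Hearts came from aged female rats of the Norway Brown strain, 18 to 22 months old, in 4 groups. The late estradiol group had its ovaries removed and received a pellet under the skin with 0.5 mg of 17-β estradiol, released over 90 days, 9 weeks after that surgery. The early estradiol group received the same pellet when the ovaries were removed. The ovariectomy group had the surgery and no pellet. The sham group had its body cavity opened and closed with the ovaries left in place. Each group has 2 arrays, and each array measured total RNA pooled in equal amounts from 3 hearts, so that a difference between arrays of a group is one between pools, which averages over animals and can be technical in part. No source used here says what arrays with the same replicate number share.

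A ribosome joins a small subunit, which reads the mRNA, to a large subunit, which links amino acids. Each subunit is built on ribosomal RNA with a set of proteins that are needed in about equal numbers, and their mRNAs are among the most abundant of most cells, the heart included. Many of these mRNAs start with an unbroken stretch of pyrimidines (C or U), called a TOP motif, through which the kinase mTOR and the RNA-binding protein Larp1 control their translation. Growth of the heart muscle is known to go with more ribosomes.

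Pyrimidine runs near the annotated start were looked for in the reference sequence; a run there need not be the first bases of the mRNA. RefSeq promoter sequences of the assembly GRCr8 were found for 40 of the 45 genes, and for Rpl7, Rpl23a, Rpl27, Rpl30 and Rps29 none was. In a window of 30 bases on the coding strand, 15 before the annotated start and 15 from it on, a run of at least 8 pyrimidines (each base C or T, in any order) was present in 25 of 40 genes (62.5%), and in 3831 of all 33469 promoters of the table (11.4%). The subunits were alike in this, with 16 of 26 genes of the large subunit (61.5%) and 9 of 14 of the small (64.3%). Letters of an ETS-type motif, CCGGAA on either strand anywhere in the 300 bases, stood in 14 of 40 genes (35%) and in 15% of all promoters. Letters of a TATA box, TATAAA on either strand in the 250 bases before the start, stood in 6 of 40 (15%) and in 12.9% of all promoters. A match is a description of letters, not a site or a cause. The windows below, 5′ to 3′ on the coding strand with the longest pyrimidine run in capitals, show long, short and displaced runs among genes whose values are given further on, with Rpl34 added for the longest run.
Rpl34, chr2:221962269-221962298, minus strand: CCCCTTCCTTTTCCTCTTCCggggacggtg
Rpl35, chr3:43165907-43165936, minus strand: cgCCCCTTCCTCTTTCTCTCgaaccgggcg
Rpl37a, chr9:81748076-81748105, plus strand: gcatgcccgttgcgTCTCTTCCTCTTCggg
Rpl21, chr12:13386139-13386168, minus strand: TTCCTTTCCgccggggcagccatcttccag
Rps28, chr7:15311319-15311348, minus strand: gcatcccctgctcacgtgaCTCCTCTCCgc
Rplp0, chr12:46718376-46718405, minus strand: gaccgcaccgcaCTTCTCTCgccaggcgtc
Rps3a, chr2:173827028-173827057, minus strand: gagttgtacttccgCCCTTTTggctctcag
Rps6, chr5:106420526-106420555, minus strand: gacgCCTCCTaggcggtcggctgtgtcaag
Rpl3l, chr10:14258431-14258460, plus strand: gacctctggtgcctggtggggaggTCCCTT
Rpl3, chr7:113507976-113508005, minus strand: ccagcgcctgctcgaTCTCTatcggcggcg
The run was 20 bases long in Rpl34, 18 in Rpl35, 13 in Rpl37a, 9 in Rpl21 and in Rps28, and 8 in Rplp0. It was 7 bases in Rps3a, 6 in Rps6 and Rpl3l, and 5 in Rpl3, which puts these 4 outside the count above. In Rpl21 the run ends before the annotated start, and in Rps28 it begins after it.

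Values below are log2 of the deposited signal after quantile normalization, which gives the 8 arrays 1 common distribution. The deposited arrays had 2% trimmed mean signals of 28.2 and 104.2 for late estradiol, 44.2 and 137.5 for early estradiol, 40.5 and 116.3 for ovariectomy, and 70.0 and 105.9 for sham (replicate 1, then replicate 2). Replicate 1 was thus the dimmer array in each group, and late estradiol replicate 1 also had the highest Gapdh 3′ to 5′ signal ratio, 2.70 against 1.26 to 1.65 on the other arrays, a sign of RNA or cDNA length. The same ratio for actin did not set that array apart, at 3.01 there and 3.06 on ovariectomy replicate 2, with 1.71 to 2.75 on the other 6. The tissue label held in that 12 of 13 cardiomyocyte markers passed the filter on dim probe sets. Their summed signal after quantile normalization ran from 68122 to 71294 in late estradiol and from 70233 to 71611 in early estradiol. It ran from 67497 to 71513 in ovariectomy and from 68909 to 69487 in sham hearts. As that normalization gives all arrays 1 distribution, the evenness of this sum is in part built in and is not a check.

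Most ribosomal protein genes were among the brightest signals of these hearts, and they were steadier than the typical probe set. Of the 45 genes, 43 passed the filter (mean log2 at or above the 40th percentile, 3.69) and were tested, 28 of the large subunit and all 15 of the small. Among these, 39 had means from 10.47 to 12.82, each at or above the 98.6th percentile of all probe sets. Rps29 was at the upper end of that range and Rpl14 at its lower end, but levels of different probe sets also differ by how well the probes bind and are not set against each other here. Over the 8 arrays the 39 genes spanned 0.19 (Rpl19) to 0.86 (Rps28), with a median span of 0.43, against a median of 1.16 over all probe sets tested. Their median residual SD within groups was 0.18, against 0.40 over all probe sets tested and 0.15 over the 395 other probe sets that are as bright. The small spread is thus shared with other bright probe sets, than which these genes were not steadier.

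The other 6 genes were dim. Rpl39, Rps27l, Rps13 and Rps4y2 had means between 3.78 and 5.30, while Rpl28 and Rpl30 did not pass the filter. Rpl39 lines the tunnel through which the new protein leaves, and Rps13 is a core protein of the small subunit. Rps27l is a paralog of Rps27. Rps4y2 carries the name of a gene that lies on the Y chromosome in human, and the RefSeq table places this rat gene on chromosome 4. The dim genes varied most: Rpl39 had 5.47 and 6.04 in late estradiol, 5.10 and 5.64 in early estradiol, 2.30 and 5.86 in ovariectomy, and 6.54 and 5.42 in sham hearts (replicate 1, then replicate 2). A single ovariectomy array stood more than 2 log2 units below the other 7 there. Why probe sets of otherwise abundant mRNAs were dim was not tested.

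**Figure D1:**
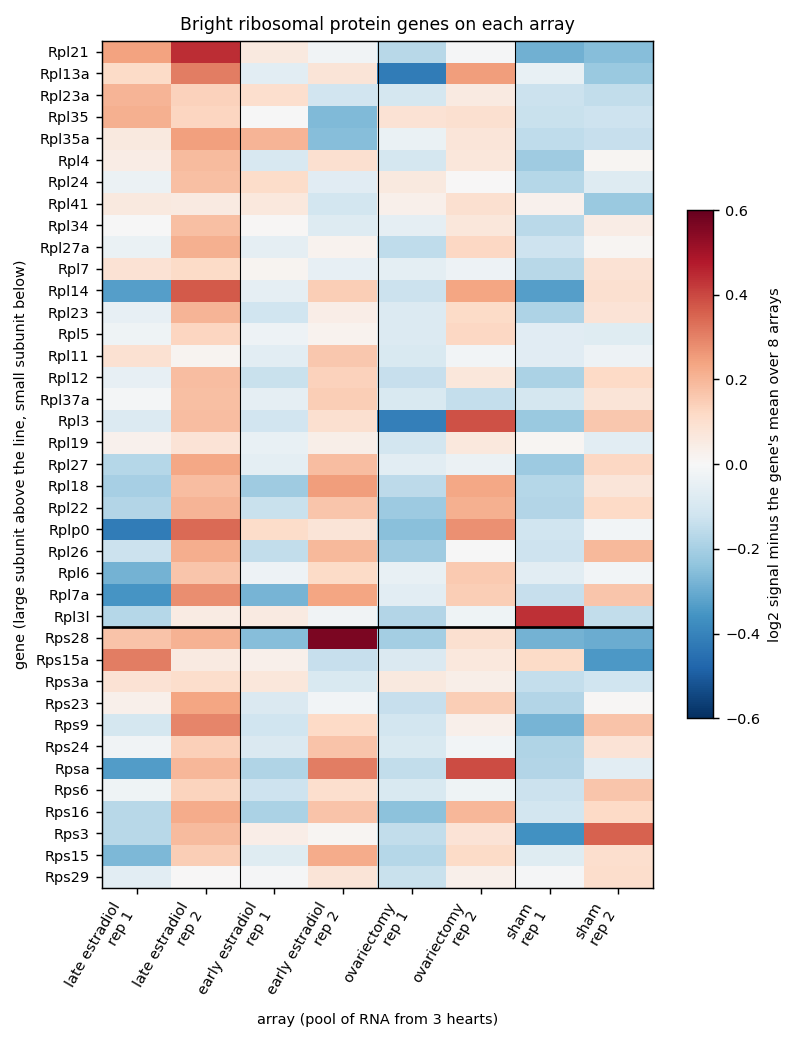
Each row is one of the 39 bright ribosomal protein genes and each column an array; colour gives normalized log2 signal minus the mean of that gene over the 8 arrays, on a scale from -0.6 to 0.6. Genes of the large subunit are above the line and those of the small subunit below it, each sorted by their late estradiol minus sham difference; replicate 2 columns are redder than replicate 1 columns in each group, and Rpl21 is highest on both late estradiol arrays.

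One pattern among these genes followed the replicate number. The median of replicate 2 minus replicate 1 over the 43 genes was 0.22 in late estradiol, 0.15 in early estradiol, 0.20 in ovariectomy and 0.14 in sham hearts. Replicate 2 was the higher array for 37, 28, 40 and 33 of the 43 genes in that order of groups, while the median over all probe sets tested was at most 0.04. In all 4 groups at once, replicate 2 was higher for 21 of the 43 genes (48.8%), against 15% of all probe sets tested, and lower for 0 of them, against 13.2%. Of the 39 bright genes 51.3% had replicate 2 higher throughout, against 14.7% of the 395 other bright probe sets.

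The genes that followed the replicate number came from both subunits, 12 from the large and 9 from the small. Among bright genes the mean of replicate 2 minus replicate 1 over the groups was largest for Rpl14 (0.42), Rpl7a (0.42), Rpsa (0.42), Rpl3 (0.41) and Rpl18 (0.37). Others did not share it: the mean difference was 0.02 for Rpl24, -0.03 for Rpl23a, -0.04 for Rps3a, -0.08 for Rpl35, -0.09 for Rpl41 and -0.18 for Rps15a. Several of the genes named next for their group values are in this second set. The control probe set for 5S ribosomal RNA, a component of the large subunit, also had its higher value in replicate 2. It was dim, with log2 values of 4.81 and 6.30 in late estradiol and 4.59 and 5.39 in early estradiol. It had 4.30 and 5.54 in ovariectomy, and 3.99 and 5.69 in sham hearts. Whether this signal follows the amount of ribosomes was not tested. The part of array brightness or of RNA length in these replicate differences was not tested.

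Large and small subunit genes kept step from array to array. As the median deviation of each set from its genes' means, late estradiol arrays had -0.03 and 0.19 for the large subunit and -0.06 and 0.15 for the small. Early estradiol arrays had -0.05 and 0.08 for the large subunit and -0.09 and 0.09 for the small. Ovariectomy arrays had -0.11 and 0.09 for the large subunit and -0.14 and 0.06 for the small. Sham arrays had -0.14 and 0.01 for the large subunit and -0.15 and 0.10 for the small. Large minus small therefore stayed between -0.09 (sham replicate 2) and 0.04 (late estradiol replicate 2), while arrays of the same group differed by more than that in each set.

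**Figure D2:**
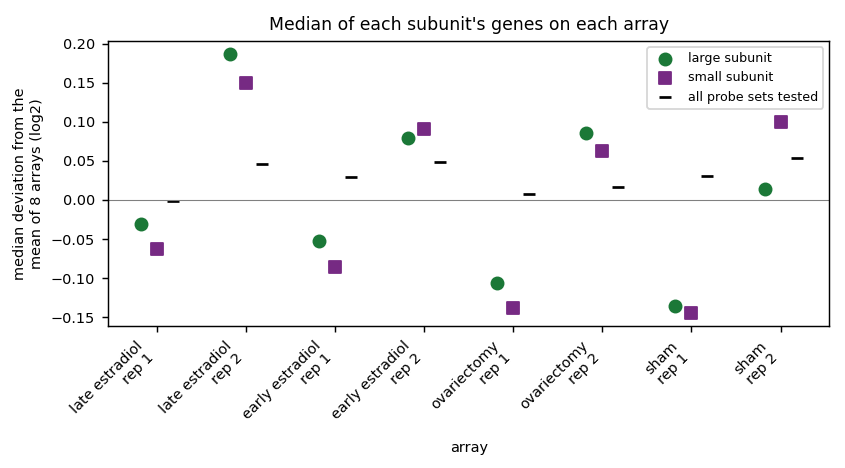
For each array the circle is the median deviation, in log2 units, of the 28 tested large subunit genes from their means over 8 arrays, the square that of the 15 small subunit genes, and the dash that of all probe sets tested. Circle and square lie close together on 7 arrays and 0.09 apart on sham replicate 2, and replicate 2 is above replicate 1 in each group.

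Over the 4 groups together, 0 of the 43 genes and 0% of the 18625 probe sets passed the moderated F test of limma at an adjusted p of 0.05. At an unadjusted p under 0.05 there was 1 gene, Rpl21, with an unadjusted p of 0.0138 and an adjusted p of 1 (limma), while 1.86% of all probe sets were under it. The 6 comparisons below share arrays, so that a low or high pair of arrays enters several of them. Signs of the medians over these genes are those after quantile normalization, and in each of the 6 comparisons at least 1 other scaling turned the sign. Leaving out 1 array breaks the pair of arrays with the same replicate number, so medians within each number are given beside those without an array. In none did a ribosomal protein gene pass, and the lowest adjusted p of any of them was 0.944 (limma). In whole-heart RNA, a change in the share of a cell type and a change in RNA per cell cannot be told apart.

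Ovariectomy against sham asks what loss of ovarian hormones does. Ribosomal protein genes were centred close to 0 there, with a median difference of 0.04, beside -0.03 over all probe sets tested, and of 0.02 within replicate 1 and 0.11 within replicate 2. Of 43 genes, 27 had a higher mean (62.8%, against 46.6% of probe sets) and 16 a lower one. The median was 0.06 for the large subunit (20 of 28 higher) and -0.00 for the small (7 of 15 higher). With 0% of probe sets past the adjusted threshold, 0 genes were called, and 0 were under an unadjusted p of 0.05, against 0.719% of probe sets on the higher side and 0.752% on the lower. Both ovariectomy arrays were above both sham arrays for 9 genes, or 20.9% of them, against 11% of probe sets, and below for 1, Rps13, against 14.2%.

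Rpl35, which sits at the exit of the protein tunnel of the large subunit, had the smallest p among the higher genes. It had 11.87 and 11.88 in ovariectomy hearts, against 11.65 and 11.66 in sham hearts. The groups did not overlap, and the difference of 0.22 ± 0.14 (limma SE, n = 2 each) had an adjusted p of 1 (limma). Rps3a, near the mRNA exit of the small subunit, was next with 12.34 and 12.31 in ovariectomy, against 12.13 and 12.16 in sham hearts, a difference of 0.18 ± 0.13. On the lower side Rpl39 differed by -1.90 ± 0.93, which came from replicate 1 alone (-4.24, against 0.44 in replicate 2). Rps13 differed by -1.21 ± 0.75, at 2.86 and 3.44 in ovariectomy and 4.46 and 4.26 in sham hearts, where the probe set is near the filter. Without ovariectomy replicate 2 the median over the 43 genes became -0.05, and without sham replicate 1 it became -0.03. Without ovariectomy replicate 1 it was 0.17, and without sham replicate 2 it was 0.13.

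Early estradiol against ovariectomy asks whether estradiol given at surgery offsets that loss. Differences ran both ways: 26 of 43 genes had a higher mean (60.5%, against 53.0% of probe sets) and 17 a lower one. The median was 0.02, the same as over all probe sets (0.03) to within 0.01. Within replicate 1 the median was 0.06 and within replicate 2 it was -0.05. The large subunit had a median of 0.02 (16 of 28 higher) and the small subunit 0.04 (10 of 15 higher). No gene was called, against 0% of probe sets, and 0 were under an unadjusted p of 0.05, against 1.11% of probe sets higher and 0.601% lower. Groups did not overlap for 3 higher genes (14.8% of probe sets) and 1 lower gene (12.3%). The lower gene was Rpl35, with 11.78 and 11.52 in early estradiol, against 11.87 and 11.88 in ovariectomy hearts, a difference of -0.23 ± 0.14 (limma SE, adjusted p = 1). Rpl37a, a zinc-binding protein of the large subunit, was among the higher ones, with 12.32 and 12.52 in early estradiol, against 12.28 and 12.23 in ovariectomy hearts, a difference of 0.16 ± 0.14. The median changed sign without ovariectomy replicate 1 (-0.07) and without early estradiol replicate 2 (-0.03), and was 0.14 without ovariectomy replicate 2 and 0.10 without early estradiol replicate 1.

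Late estradiol against ovariectomy asks the same of a pellet given after a delay. Here 35 of 43 genes had a higher mean (81.4%, against 51.2% of probe sets) and 8 a lower one. The median was 0.08, beside 0.01 over all probe sets. The large subunit had a median of 0.08 (22 of 28 higher) and the small subunit 0.12 (13 of 15 higher). The pooled within-group SD of the array medians was 0.13, and it contains the gap between replicates 1 and 2 that ran the same way in all 4 groups. Within replicate 1 the median late minus ovariectomy difference was 0.08 and within replicate 2 it was 0.09. In both replicates 26 of the 43 genes were higher, against 5212 of 18625 probe sets (28%). Lower in both were 2 of the 43 genes, against 4609 probe sets (24.7%). No gene was called, against 0% of probe sets. At an unadjusted p under 0.05 there was 1 higher gene, against 2.07% of probe sets, and 0 lower ones, against 2.28%. Both late arrays were above both ovariectomy arrays for 8 genes, or 18.6%, against 15.7% of probe sets, and below for 0, against 13.3%.

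Rpl21, a protein of the large subunit, was the gene under 0.05. It had 10.85 and 11.05 in late estradiol hearts, against 10.44 and 10.60 in ovariectomy hearts. The groups did not overlap, and the difference was 0.43 ± 0.15 (1.35-fold, limma SE), with an unadjusted p of 0.0168 and an adjusted p of 0.944 (limma). Rpl13a, often used as a reference gene, had 11.29 and 11.48 in late estradiol, against 10.75 and 11.42 in ovariectomy hearts, a difference of 0.30 ± 0.21 in which ovariectomy replicate 1 was the low array. On the lower side the smallest p belonged to Rpsa, the laminin receptor homologue of the small subunit, with 10.73 and 11.26 in late estradiol, against 10.91 and 11.45 in ovariectomy hearts, a difference of -0.19 ± 0.24. Without late estradiol replicate 2 the median over the 43 genes was -0.01, and without ovariectomy replicate 1 it was -0.01. It was 0.20 without late estradiol replicate 1 and 0.17 without ovariectomy replicate 2. With the replicate number as a block, 1 probe set of all those tested was called, and 0 ribosomal protein genes.

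Late against early estradiol compares a pellet given 9 weeks after surgery with one given at surgery. The time from pellet to collection of the hearts is not given here, so start and length of treatment cannot be told apart. Of 43 genes 30 had a higher mean in late estradiol (69.8%, against 49.2% of probe sets) and 13 a lower one. The median was 0.06, beside -0.01 over all probe sets. Within replicate 1 the median was 0.02 and within replicate 2 it was 0.10. The large subunit had a median of 0.06 (20 of 28 higher) and the small subunit 0.04 (10 of 15 higher). No gene was called, against 0% of probe sets, and 0 were under an unadjusted p of 0.05, against 1.28% higher and 2.58% lower. Groups did not overlap for 9 higher genes, or 20.9%, against 15.5% of probe sets, and for 1 lower gene, Rps13, against 16.3%.

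Rpl35 had the smallest p, with 11.997 and 11.916 in late estradiol, against 11.78 and 11.52 in early estradiol hearts. Its difference was 0.31 ± 0.14 (1.24-fold, limma SE), with an unadjusted p of 0.0538 and an adjusted p of 0.987 (limma). Rpl21 followed with a difference of 0.32 ± 0.15, at 10.85 and 11.05 in late estradiol and 10.66 and 10.59 in early estradiol hearts. Rps15a, of the small subunit, had 11.90 and 11.65 in late estradiol, against 11.63 and 11.46 in early estradiol hearts, a difference of 0.24 ± 0.18. Its late replicate 2 value was only just above its higher early value. The median over the 43 genes changed sign without early estradiol replicate 1 (-0.03) and without late estradiol replicate 2 (-0.02), and was 0.17 without late estradiol replicate 1 and 0.14 without early estradiol replicate 2.

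Against sham, both estradiol groups had more genes with a higher mean than a lower one. In early estradiol 33 of 43 were higher (76.7%, against 49.8% of probe sets), with a median of 0.06, beside -0.00 over all probe sets. The early medians were 0.06 for the large subunit (23 of 28 higher) and 0.05 for the small (10 of 15 higher). In late estradiol 35 of 43 were higher (81.4%, against 47.9% of probe sets), with a median of 0.10, beside -0.02 over all probe sets. The late medians were 0.11 for the large subunit (24 of 28 higher) and 0.05 for the small (11 of 15 higher). Within replicates 1 and 2 the median early minus sham difference was 0.05 in each, and the late minus sham difference 0.10 in replicate 1 and 0.14 in replicate 2. For late against sham 26 of the 43 genes were higher in both replicates, against 4796 of 18625 probe sets (25.8%). In both replicates 3 of the 43 were lower, against 5238 probe sets (28.1%). The 395 other bright probe sets had medians of -0.03 for early estradiol and -0.04 for late estradiol against sham. No gene was called in either, against 0% of probe sets. At an unadjusted p under 0.05 there were 0 genes for early estradiol, against 0.408% of probe sets higher and 0.376% lower, and 1 higher gene for late estradiol, Rpl21, against 1.4% higher and 1.97% lower.

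Both early arrays were above both sham arrays for 8 genes, or 18.6%, against 12% of probe sets, and below for 1, Rps4y2, against 12.7%. Both late arrays were above both sham arrays for 15 genes, or 34.9%, against 14.4% of probe sets, and below for 1, Rps13, against 16.2%. The 15 are 11 genes of the large subunit, which include Rpl4, Rpl5, Rpl11, Rpl19, Rpl24 and Rpl41, and 4 of the small, Rps3a, Rps23, Rps27l and Rps28. Without late estradiol replicate 2 the late against sham median was 0.00, and without sham replicate 1 it was 0.01. It was 0.22 without sham replicate 2 and also without late estradiol replicate 1. For early against sham the median was -0.03 without sham replicate 1, -0.01 without early estradiol replicate 2, 0.13 without sham replicate 2 and 0.13 without early estradiol replicate 1.

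Rpl21 gave the largest late against sham difference among bright genes. It had 10.85 and 11.05 in late estradiol, 10.66 and 10.59 in early estradiol, 10.44 and 10.60 in ovariectomy, and 10.32 and 10.35 in sham hearts. The group means thus stood in the order late estradiol, early estradiol, ovariectomy, sham, with early estradiol and ovariectomy overlapping. Late minus sham was 0.61 ± 0.15 (1.53-fold, limma SE, n = 2 each), with an unadjusted p of 0.00215 and an adjusted p of 0.996 (limma). When 1 array was left out it lay between 0.51 and 0.72.

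Rps28, at the mRNA exit of the small subunit, had the widest range over the 8 arrays among bright genes, though 5 of them, Rpl3, Rplp0, Rpl14, Rpsa and Rpl7a, had a larger residual SD within groups. It had 11.66 and 11.70 in late estradiol, 11.23 and 12.05 in early estradiol, 11.28 and 11.58 in ovariectomy, and 11.20 and 11.19 in sham hearts. The sham arrays were the 2 lowest, and early estradiol spanned almost the whole range, so that its difference from sham (0.45 ± 0.23) was 0.03 in replicate 1 and 0.86 in replicate 2. Late minus sham was 0.48 ± 0.23, with an unadjusted p of 0.0677 and an adjusted p of 0.996 (limma). Rpl23a, which offers a docking place for factors at the tunnel exit, had 11.68 and 11.61 in late estradiol, 11.58 and 11.36 in early estradiol, 11.37 and 11.53 in ovariectomy, and 11.35 and 11.33 in sham hearts. Its late minus sham difference was 0.31 ± 0.14, with an unadjusted p of 0.0552 and an adjusted p of 0.996 (limma). Rps3a had 12.37 and 12.38 in late estradiol, 12.35 and 12.19 in early estradiol, and sham values given above, with a late minus sham difference of 0.23 ± 0.13.

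Counted over all 8 arrays, both late estradiol arrays were the highest for 4 genes, Rpl21, Rpl23a, Rpl35 and Rps3a, which is 9.3% of the 43, against 4.13% of all probe sets, and the lowest for 0, against 4.4%. Both sham arrays were the lowest for 6 genes, Rpl21, Rpl23a, Rpl24, Rps27l, Rps28 and Rps3a, or 14.0%, against 1.59% of probe sets, and the highest for 0, against 2.28%. These counts were chosen after the values had been seen and carry no test. They hold for quantile-normalized values. With no normalization, late minus sham was -0.07 for Rpl21, -0.15 for Rpl23a, -0.41 for Rpl24, -0.06 for Rpl35 and -0.01 for Rps3a. It was 0.14 for Rps27l and 0.01 for Rps28. With the trimmed mean all of these differences were positive.

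**Figure D3:**
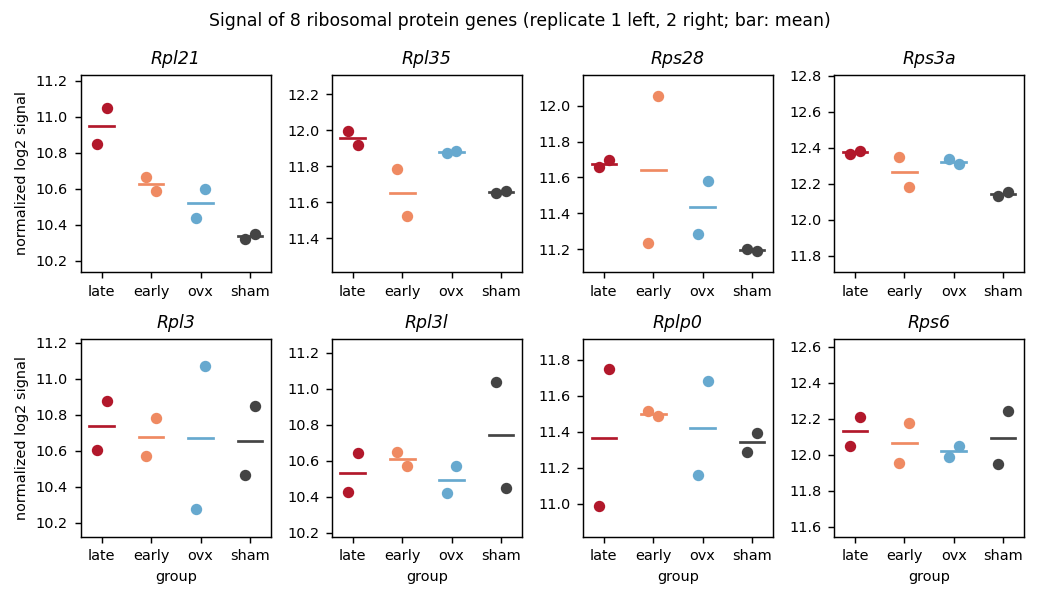
Normalized log2 signal of 8 ribosomal protein genes, with a point per array (replicate 1 left, replicate 2 right in each group) and a bar at the group mean; the vertical axes differ in position and all span the same number of log2 units. For Rpl21 and Rps3a the late estradiol points are highest and the sham points lowest, while Rpl3, Rplp0 and Rps6 differ more between replicates than between groups. The order of Rpl21 and Rps3a is not kept in the signals as deposited (late minus sham -0.07 for Rpl21 and -0.01 for Rps3a).

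Among genes with known roles of their own, none passed. Rpl3 lies by the site where peptide bonds are made, and Rpl3l replaces it in heart and skeletal muscle. Rpl3 had 10.60 and 10.87 in late estradiol, 10.57 and 10.78 in early estradiol, 10.28 and 11.07 in ovariectomy, and 10.46 and 10.85 in sham hearts. Rpl3l had 10.43 and 10.64 in late estradiol, 10.65 and 10.57 in early estradiol, 10.42 and 10.57 in ovariectomy, and 11.04 and 10.45 in sham hearts. Groups overlapped for both genes, and sham replicate 1 was the array on which Rpl3l was high. The log ratio of Rpl3l to Rpl3, as a deviation from its mean over 8 arrays, was -0.09 and -0.14 in late estradiol, 0.17 and -0.12 in early estradiol, 0.24 and -0.41 in ovariectomy, and 0.66 and -0.31 in sham hearts. It was lower on both late arrays than its mean, but the other groups held values on both sides. A second, dimmer probe set of Rpl3, of a kind that may bind related sequences, had its higher value in replicate 1 of each group, unlike the first.

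Rplp0, the base of the stalk that recruits translation factors, had 10.98 and 11.75 in late estradiol, 11.51 and 11.49 in early estradiol, 11.16 and 11.68 in ovariectomy, and 11.29 and 11.39 in sham hearts. Its early arrays were above its sham arrays, and its 2 late arrays lay at the ends of its range. Rps6, the target of S6 kinase, had 12.05 and 12.21 in late estradiol, 11.95 and 12.18 in early estradiol, 11.98 and 12.05 in ovariectomy, and 11.95 and 12.24 in sham hearts, so that all groups overlapped. Rpl5 and Rpl11 bind the 5S ribosomal RNA and, when free, the p53 regulator Mdm2. Rpl5 had 11.82 and 11.98 in late estradiol, against 11.78 and 11.78 in sham hearts. Rpl11 had 11.63 and 11.56 in late estradiol, against 11.47 and 11.51 in sham hearts. Their late arrays were above their sham arrays by little, and neither passed. Rpl22 had 11.59 and 11.97 in late estradiol, 11.64 and 11.94 in early estradiol, 11.55 and 11.98 in ovariectomy, and 11.59 and 11.89 in sham hearts, a gap between replicates in each group beside nearly equal group means.

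The 3 probe sets of Rpsa could be set side by side across arrays. Each had its higher value in replicate 2 of all 4 groups, but all except the brightest are of kinds that may bind related sequences. A second, dimmer probe set of Rps24 also had its higher value in replicate 2 of each group. That of Rpl7 had it in replicate 2 of late estradiol only (6.42 and 6.47), with 6.79 and 4.88 in early estradiol. Rps27l had 5.96 and 4.93 in late estradiol, 5.20 and 4.97 in early estradiol, 5.03 and 5.08 in ovariectomy, and 4.67 and 4.80 in sham hearts. In human Rps27l is a target of p53. Its sham arrays were the lowest, and late replicate 1 alone was far above the rest.

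The direction of the set rested on how the arrays were scaled. On the signals as deposited, with no normalization, the median over the 43 genes was -0.15 for ovariectomy against sham, 0.11 for early estradiol against ovariectomy, -0.15 for late estradiol against ovariectomy, -0.25 for late against early estradiol, -0.04 for early estradiol against sham and -0.35 for late estradiol against sham. In the same order the median over all probe sets was then -0.31, 0.18, -0.31, -0.48, -0.14 and -0.62, so the genes lay above it in all but early estradiol against ovariectomy. With each array scaled to its 2% trimmed mean, the medians were 0.18, -0.08, 0.20, 0.27, 0.11 and 0.32, and the median over all probe sets was at most 0.05 in size. Relative to the median of all probe sets, late against sham was 0.13 with quantile normalization and 0.27 with each of the other scalings. Early estradiol against ovariectomy was -0.01 with quantile normalization and -0.07 with each of the others. Scaling to the trimmed mean shifts all probe sets of an array by the same amount. Its values relative to that median therefore repeat those with no normalization by construction and are not a separate check. Subunits behaved alike: late minus sham was 0.31 for the large and 0.39 for the small with the trimmed mean, and -0.35 and -0.28 with no normalization. With no normalization Rpl21 differed by -0.07 and Rpl35 by -0.06 between late estradiol and sham hearts, and with the trimmed mean by 0.60 and 0.60.

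**Figure D4:**
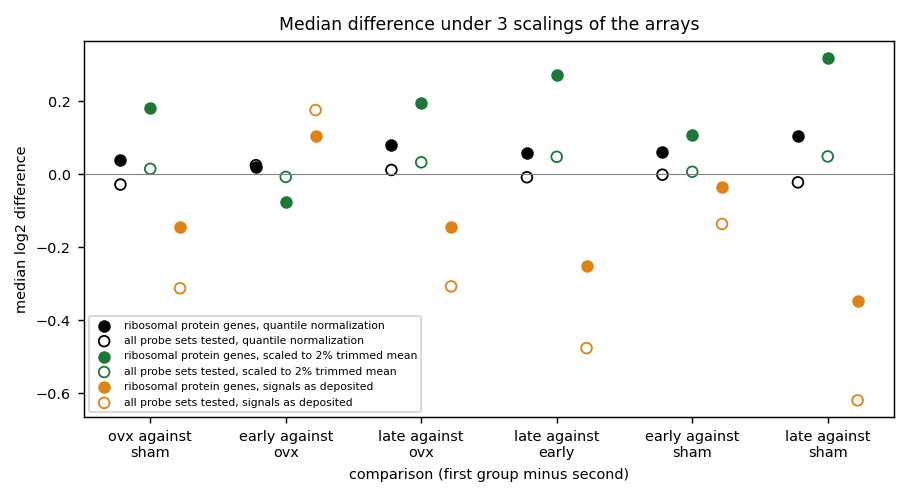
Median log2 difference of the 43 tested ribosomal protein genes (filled) and of all probe sets tested (open) in each of 6 comparisons, first group minus second, under quantile normalization, scaling to the 2% trimmed mean, and no normalization. The filled points change sign between scalings in all 6 comparisons, while they lie above the open points of the same scaling in 5 of them. The gap between filled and open points is the same by construction with the trimmed mean and with no normalization.

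Other genes of the same machinery gave no call in any comparison, against 0% of probe sets. Of 20 listed symbols for translation factors and other genes with TOP mRNAs, which need not all be separate genes, 13 were tested. Their medians were 0.09 for late estradiol against ovariectomy (9 of 13 higher) and 0.20 for late estradiol against sham. Eef1d, a subunit of the elongation factor that reloads Eef1a, had the smallest p on the higher side of late against sham, with a difference of 0.41 ± 0.19 (limma SE, adjusted p = 0.996). Eef1a2, the muscle form of the factor that brings tRNA, had 9.02 and 10.71 in late estradiol, against 11.12 and 10.48 in sham hearts, and its low value was on late replicate 1. Of 37 genes of ribosome assembly and rRNA synthesis 36 were tested, with medians of 0.01 for late estradiol against ovariectomy (19 of 36 higher) and 0.00 for late estradiol against sham. Gar1, which guides pseudouridine formation in rRNA, had 6.79 and 6.54 in late estradiol, against 5.53 and 6.23 in ovariectomy hearts. Eif6, which keeps free large subunits from joining, had 7.44 and 7.71 in early estradiol, against 8.26 and 8.01 in ovariectomy hearts, a difference of -0.56 ± 0.23 that did not pass (adjusted p = 1, limma).

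Of 16 genes that control ribosomal protein synthesis, 14 were tested, with medians of 0.03 for late estradiol against ovariectomy and -0.04 for late estradiol against sham. Tsc2, an inhibitor of mTOR signalling, had 5.06 and 6.33 in late estradiol, 7.17 and 7.05 in early estradiol, 7.34 and 7.33 in ovariectomy, and 7.19 and 6.79 in sham hearts. Both late arrays were below the other 6, and late minus ovariectomy was -1.64 ± 0.38 (limma SE), with an unadjusted p of 0.00163 and an adjusted p of 0.944 (limma). Eif4ebp1, which blocks cap-dependent translation until mTOR phosphorylates it, had 7.06 and 7.54 in late estradiol, 7.58 and 7.55 in early estradiol, 7.95 and 7.97 in ovariectomy, and 7.51 and 7.41 in sham hearts. The ovariectomy arrays were its 2 highest, and late minus ovariectomy was -0.66 ± 0.23 with an adjusted p of 0.944 (limma). Mtor had 7.67 and 7.35 in late estradiol, 6.95 and 6.85 in early estradiol, 7.15 and 7.19 in ovariectomy, and 6.87 and 7.15 in sham hearts. Its late arrays were the 2 highest, and late minus early was 0.61 ± 0.24, which did not pass either (adjusted p = 0.987, limma). Late minus ovariectomy was 0.34 ± 0.24 for Mtor. The list as a whole went both ways. Of its 14 tested genes 8 were higher and 6 lower in late estradiol than in ovariectomy hearts. Against early estradiol 6 were higher and 8 lower. Rptor was lower in both, by -0.10 ± 0.36 and -0.44 ± 0.36 (limma SE). Late replicate 1, the dimmest array, held the most extreme value of Tsc2, Eif4ebp1 and Mtor.

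No marker of other heart cells passed in any comparison, against 0% of probe sets. Their summed signals after quantile normalization are given as values. The summed signal of all 7 fibroblast markers was 3252 to 4137 in late estradiol, 4923 to 5976 in early estradiol, 5880 to 6196 in ovariectomy and 4532 to 4926 in sham hearts. That of all 10 macrophage markers was 1263 to 1945 in late estradiol, 2379 to 2973 in early estradiol, 1505 to 5896 in ovariectomy and 1535 to 1592 in sham hearts. That of 5 of 6 endothelial markers was 1855 to 2584 in late estradiol, 2009 to 2037 in early estradiol, 1620 to 1679 in ovariectomy and 1774 to 1811 in sham hearts. None of these tested markers was listed at 0, and of 10 lymphocyte markers 4 were tested, those of B cells not among them. The part of the cell makeup in the ribosomal protein values was not tested.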

How the data were processed

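Biotin-labelled RNA of 8 pools was measured on 1-colour Affymetrix expression arrays. The authors deposited a linear signal intensity for each probe set on each array, which the submitters' processing notes credit to MAS5. Version, scaling target and detection calls of that step are not stated in what was used here. From these, log2 values were quantile-normalized over all 31099 probe sets, 57 control probe sets were dropped, and the 18625 of 31042 with a mean at or above the 40th percentile went into limma 3.58.1 under R 4.3.3 (group means, all 8 arrays, intensity trend, 4 residual degrees of freedom). Tests are two-sided with Benjamini-Hochberg adjustment over all probe sets at 0.05. The number of arrays limits the precision. The fit was tested on simulated data.

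Gene names come from the platform annotation (20826 probe sets with 1 symbol, 436 with several, 9780 with none); 43 of the 45 genes matched RefSeq by gene number and Rpl37a and Rps9 by symbol only. The members and lists were chosen with earlier results of these data known. Named were, in each comparison, the 3 higher and 3 lower genes of smallest p as far as described, and genes of known role; from the other lists, up to 2 each way. Rpl4, Rpl14, Rpl18, Rpl19, Rpl34, Rps23 and the 2 dim genes that were not tested were named after their values were seen.

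Replicate numbers were checked for pairing: differences between replicates 2 and 1 correlated across probe sets at 0.28 to 0.33 in all 6 pairs of groups. The number thus pairs the arrays in the data, while the labels do not say so. Replicate 1 was the dimmer array in each group, and the part of brightness in this correlation was not tested. The main fit leaves out the replicate number. A fit with it as a block, other scalings, filters and probe set choices, and each array left out were tried as alternatives.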

Additional observations from a re-analysis of the deposited data

How the results depend on the processing

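Ribosomal protein genes called stayed at 0 under every alternative run. With no normalization between arrays, the median over the 43 genes was -0.145 for ovariectomy against sham, -0.145 for late estradiol against ovariectomy, -0.251 for late against early estradiol and -0.348 for late estradiol against sham. With scaling to the 2% trimmed mean it was 0.182 for ovariectomy against sham, 0.273 for late against early estradiol and 0.319 for late estradiol against sham. Of 156 differences of single named genes, none of which passed, 75 changed sign with no normalization, 25 with the trimmed mean, 35 without the 2 dimmest arrays and 15 to 22 when 1 array was left out. With the replicate number as a block, the lowest adjusted p of a ribosomal protein gene was 0.606 (late estradiol against ovariectomy, limma), and the block changed no call of these genes. The median residual SD over all probe sets tested was 0.33 with the block and 0.395 without it. For late estradiol against sham, 4 of the 43 genes and 1339 of 18625 probe sets were then under an unadjusted p of 0.05 (limma). In the other comparisons 0 to 2 of the genes were, against 304 to 1494 of the 18625 probe sets. The count of 2 of 43 genes was for late against early estradiol, where 1451 of 18625 probe sets were under it, a larger share. Over all probe sets, late estradiol against ovariectomy had 1 call with the block, 1 with 32 added before the log and 1 with no filter, against 0 as reported. Without the 2 dimmest arrays, late estradiol replicate 1 and ovariectomy replicate 1, there were 6 calls for ovariectomy against sham, 1 for early estradiol against ovariectomy and 4 for late estradiol against ovariectomy. When 1 array was left out, calls ranged from 0 to 3 for ovariectomy against sham, 0 to 67 for late estradiol against ovariectomy, 0 to 101 for late against early estradiol, 0 to 88 for late estradiol against sham and 0 to 1 for the F test. All of the highest counts but the first came without late estradiol replicate 2, where the lone late array is assumed to vary like the other groups, and the first came without ovariectomy replicate 1. The cause was not tested. An alternative without the 4 dim tested genes, chosen after seeing the data, moved the 6 medians by at most 0.01.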
